A study of Homo sapiens with 6 samples.

Results

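The genes described here are the long noncoding RNAs and the genes known only by a clone name among those that differed in HMC3 cells, an established human microglial line, after treatment with C1s-CM or with control CM. They were chosen by symbol alone: LINC numbers, small nucleolar RNA hosts (SNHG), microRNA hosts (MIR…HG), antisense suffixes, divergent and intronic suffixes, clone identifiers such as AC093297.2, and 7 individually named genes. Of the 5117 genes in the table, 49 met the rule (0.958%). They comprised 21 clone-named genes, 13 antisense genes, 5 small nucleolar RNA hosts, 4 LINC genes, 1 microRNA host (MIR100HG) and 5 individually named genes (BCYRN1, FTX, MALAT1, RNY1 and UBBP4). NEAT1 and GAS5 have no row and were not analysed here, and no divergent or intronic symbol was present.

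The C1s-CM group (3 libraries) received CM with C1s, an enzyme that cleaves complement components C4 and C2, and the control CM group (3 libraries, titled FLAG) received CM without C1s. The labels give all cells as wild type and do not spell out CM. They do not say that each library is its own culture, and the p-values therefore cover only how far these libraries varied, a spread that may be technical. RNA was selected for poly(A) tails before sequencing. The table holds only genes that passed the authors' own threshold, so a gene without a row is not shown to be unchanged, and its column sums of 14227590, 14961744 and 14195082 counts in C1s-CM and 12730766, 13531335 and 13863120 counts in control CM are a part of each library. Of 15 microglia and macrophage markers 1 had a row, as did 2 of 7 fibroblast and pericyte markers (COL1A1 and PDGFRB), 0 of 10 astrocyte and glioma markers and 0 of 5 neuron markers, so the labelled cell type could not be checked further.

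Long noncoding RNAs are transcribed and often spliced and polyadenylated like messenger RNAs but are not known to encode a long protein, and they act, where a role is known, by binding chromatin, proteins or other RNAs. Several serve as carriers: small nucleolar RNAs, which guide chemical modification of ribosomal RNA, and many microRNAs are cut from introns or exons of a noncoding host whose spliced remainder can be a substrate of nonsense-mediated decay. Others are short RNA polymerase III products, such as BCYRN1 and the Y RNAs, which are not polyadenylated by the messenger RNA pathway. Clone names mark loci that had no approved symbol when the annotation was made and gather antisense transcripts, intergenic RNAs and pseudogenes.

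The 49 genes divided almost evenly by direction. By edgeR (quasi-likelihood, Benjamini-Hochberg adjusted over all 5116 tested genes), 25 of the 48 tested members were higher in C1s-CM, 22 were lower and SNHG29 missed the threshold of 0.05. Of all tested genes 50.9% were higher and 48.5% lower, and 99.4% were called in either direction, because the table had been selected for such genes. In bulk RNA fewer cells of one kind and less RNA per cell cannot be told apart. The count of called members is near this background and is no result about the members. Each adjusted p of the fits made here re-tests genes already selected on these same libraries. Genes without a row are left out of the adjustment, so it does not measure false calls among all genes. With total counts as the only scaling, which moved the median log2 fold change of all tested genes by -0.13, the split of the members was 18 higher and 23 lower. The median log2 fold change of the members, C1s-CM over control CM, was 0.15, and that of all tested genes was 0.08. The median absolute log2 fold change was 0.57 in the members and 0.31 in all tested genes. In 43 of 48 members the C1s-CM libraries did not overlap the control CM libraries in CPM (counts divided by the scaled sum of the table), against 97.2% of all tested genes.

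Direction differed between the naming classes. Of the 13 antisense genes 4 were higher and 9 lower, with a median log2 fold change of -0.55. Of the 5 small nucleolar RNA hosts 4 were higher and 0 lower (median 0.17). Of the 21 clone-named genes 12 were higher and 9 lower (median 0.24), of the 4 LINC genes 3 were higher and 1 lower (median 0.48), and of the 4 individually named genes that were tested 2 were higher and 2 lower (median 0.21). MIR100HG was lower. With total counts the antisense genes had 2 higher and 9 lower, and the small nucleolar RNA hosts 2 higher and 1 lower (SNHG29). These counts are descriptions of small classes, and no test between classes was made. A second fit used offsets, which remove from each library the trend of its counts with the GC content and length of the transcripts. Values "with offsets" come from that fit and its own adjusted p. With offsets the class medians were -0.13 for antisense genes, -0.06 for small nucleolar RNA hosts and -0.01 for clone-named genes. Those of LINC and individually named genes were 0.37 and 0.39. The median GC content was 43.3% in antisense genes, 57.1% in the hosts and 53.2% in clone-named genes. It was 51.5% in LINC genes and 43.8% in individually named genes. Whether the classes differ apart from GC content was not tested.

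**Figure D1:**
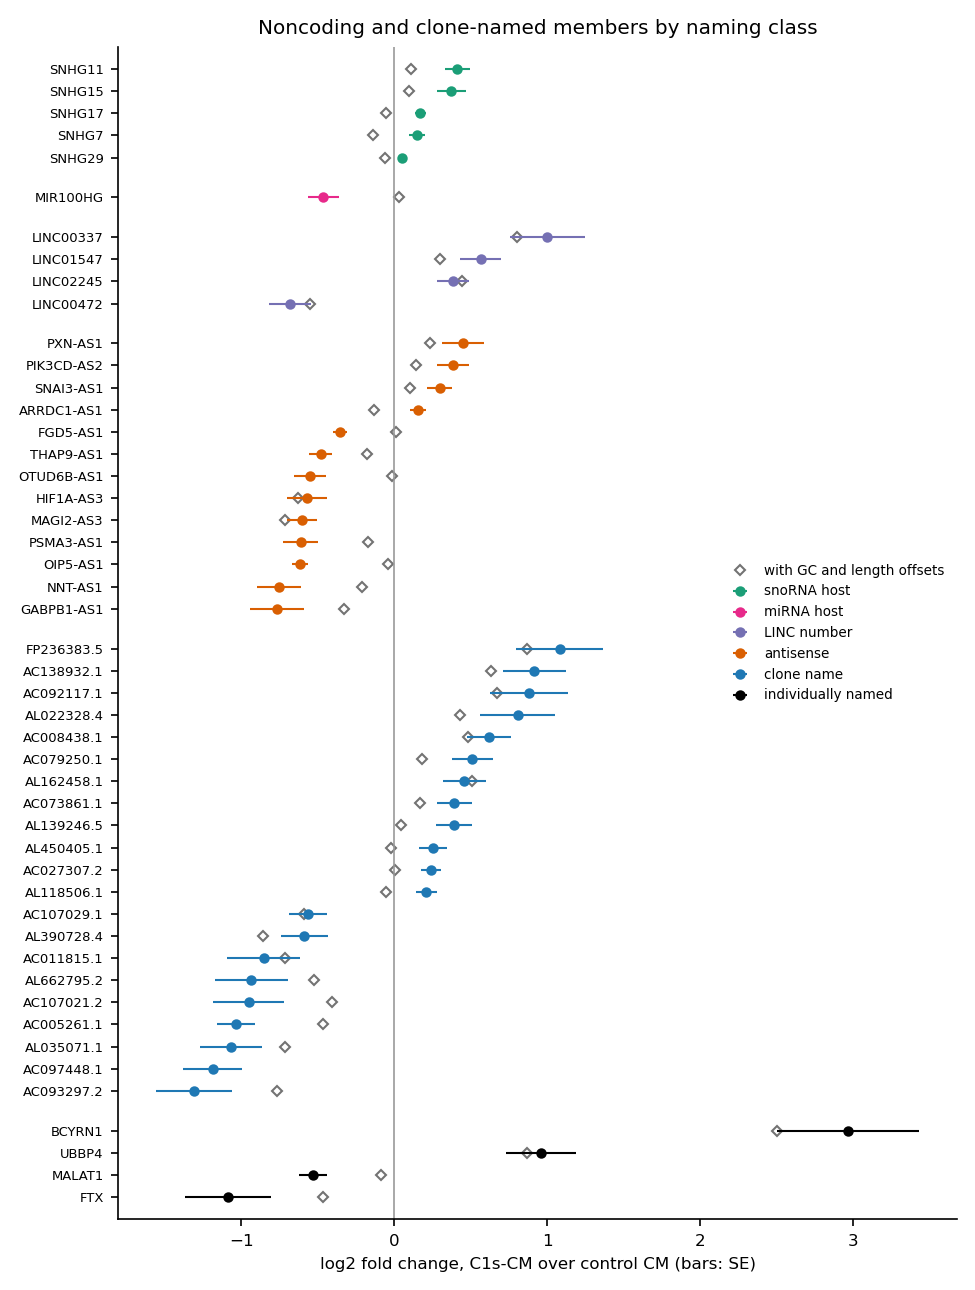
Log2 fold change of C1s-CM over control CM for each of the 48 tested members, grouped by naming class, with bars for the SE. Open diamonds give the value with GC and length offsets. Most antisense genes lie left of 0, all 5 small nucleolar RNA hosts lie right of 0 without offsets (SNHG29 left of it with total counts as the only scaling), and BCYRN1 lies farthest from 0 at 2.96.

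As a group the members made up a small part of the counts. They summed to 23659, 25501 and 24038 counts in C1s-CM, against 22987, 24557 and 25551 counts in control CM. As a share of the table this was 0.166 to 0.170% in C1s-CM and 0.181 to 0.184% in control CM, so the C1s-CM libraries were all below the control CM libraries. SNHG29 and the other small nucleolar RNA hosts took most of it, with 0.108 to 0.110% of the table in C1s-CM and 0.111 to 0.113% in control CM. The antisense genes took 0.0297 to 0.0304% in C1s-CM and 0.0393 to 0.0404% in control CM. These shares divide by total counts, and that scaling moved the median log2 fold change of all tested genes by -0.13. With TMM-scaled totals 4 of the 5 hosts were called higher and 0 lower, although their share was lower. A lower share is therefore not shown to be a fall with the TMM scaling.

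Among the short RNA polymerase III products, BCYRN1 had the largest log2 fold change of the members. BCYRN1 (BC200) is a primate RNA derived from an Alu repeat that is known as a translational repressor in neurons. RNY1 is a Y RNA, a small RNA bound by the Ro60 protein. The GENCODE 29 transcript of RNY1 is shown because it is a short RNA without a poly(A) tail counted in poly(A)-selected libraries. The capitals mark the first of its runs of 2 A, and it has no longer run. RNY1 lies at chr7:148987136-148987248 on the minus strand (GRCh38).
RNY1: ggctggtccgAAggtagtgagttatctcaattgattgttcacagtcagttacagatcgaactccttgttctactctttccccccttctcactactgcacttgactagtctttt

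The RNY1 transcript has 113 bases.

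BCYRN1 had 19, 65 and 104 counts in C1s-CM, against 8, 6 and 10 counts in control CM. All C1s-CM libraries were above all control CM libraries, but the lowest C1s-CM library, replicate 1, lay much closer to the controls than to replicate 3. BCYRN1 averaged 4.53 ± 3.12 CPM in C1s-CM and 0.572 ± 0.134 CPM in control CM (SD, n = 3 each), and the log2 fold change was 2.96 ± 0.46 (SE, edgeR adjusted p = 3.45e-06). Without C1s-CM replicate 3 it was 2.37, and without C1s-CM replicate 1 it was 3.39. With GC and length offsets it was 2.50 ± 0.47 and still past the threshold.

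RNY1 had 2, 50 and 75 counts in C1s-CM, against 7, 7 and 3 counts in control CM. C1s-CM replicate 1 was below every control CM library also in CPM (0.146 CPM, against 0.531, 0.495 and 0.206 CPM), whereas C1s-CM replicates 2 and 3 (3.50 and 5.51 CPM) were far above them. The edgeR filter on low counts removed RNY1, the only gene of the table that it removed. Fitted without that filter, the log2 fold change of RNY1 was 2.89 ± 0.65 (SE, edgeR adjusted p = 2.35e-04), and without C1s-CM replicate 1 it was 3.44. In the authors' deposited table its log2 fold change was 2.93 with an adjusted p-value of 0.0446. RNY1 and BCYRN1 are both repeated in the genome: BCYRN1 is 92.5% identical over 79.5% of its length to a coding transcript of ZNF3, and RNY1 92.8% identical over 98.2% of its length to one of PAQR5. Reads from such copies could not be told apart, and ZNF3 and PAQR5 have no row. Of further transcripts similar to BCYRN1, those of YIPF4 (91.8% over 79.0%) and HNRNPUL1 (84.9% over 59.0%) belong to genes with a row.

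FP236383.5, a clone-named gene annotated as a long intergenic RNA on chromosome 21 (8437629 to 8438551, minus strand), showed the same order of C1s-CM libraries as BCYRN1 and RNY1. Its transcript was compared with coding transcripts only, so whether its reads came from other copies in the genome was not tested. It had 32, 57 and 81 counts in C1s-CM, against 17, 39 and 25 counts in control CM. The groups overlapped, since C1s-CM replicate 1 (2.34 CPM) was below control CM replicate 2 (2.76 CPM). The log2 fold change of FP236383.5 was 1.08 ± 0.28 (SE, edgeR adjusted p = 0.00104), and with GC and length offsets it was 0.86 and past the threshold. It was 0.72 without C1s-CM replicate 3, 1.36 without C1s-CM replicate 1 and 1.44 without control CM replicate 2. GENCODE 29 names this gene identifier FP236383.3.

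**Figure D2:**
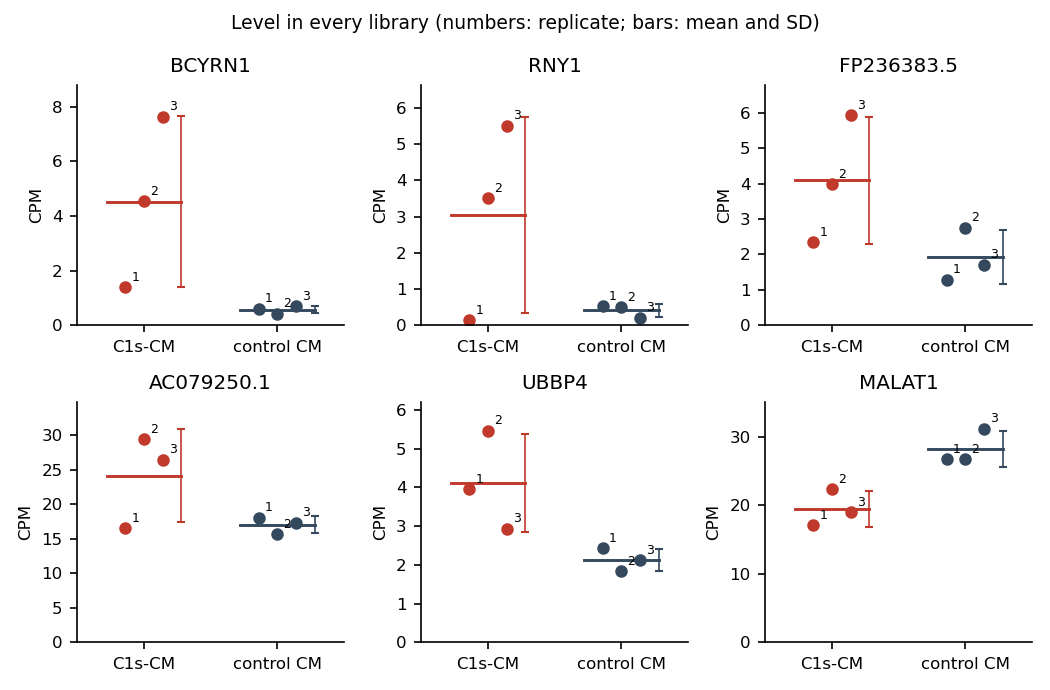
CPM in each library for 6 members, C1s-CM left and control CM right, with replicate numbers beside the points, lines for the mean and bars for the SD (n = 3 each). In BCYRN1, RNY1, FP236383.5 and AC079250.1 the lowest C1s-CM point is replicate 1, and in MALAT1 every C1s-CM point lies below every control CM point.

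C1s-CM replicate 1 was the lowest of its group for 23 of the 48 tested members, and for 31.7% of all tested genes. Replicates 2 and 3 were the lowest for 10 and 15 members. BCYRN1, FP236383.5, AC079250.1 and AC107021.2 were the 4 tested members that stood, in proportion, farthest below the other C1s-CM libraries there. AC107021.2, a sense-overlapping clone gene, had 16, 30 and 25 counts in C1s-CM, against 38, 48 and 53 counts in control CM. Its log2 fold change was -0.95 ± 0.23 (SE), and -0.75 without that library. AL022328.4 behaved the other way, being highest in C1s-CM replicate 1, and is described with the clone-named genes.

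Of the individually named genes, both nuclear long RNAs were lower. MALAT1, an abundant RNA of nuclear speckles whose mature 3′ end is a triple helix and not a poly(A) tail, had 234, 319 and 258 counts in C1s-CM, against 352, 378 and 455 counts in control CM. Every C1s-CM library was below every control CM library. MALAT1 averaged 19.5 ± 2.65 CPM in C1s-CM and 28.2 ± 2.57 CPM in control CM (SD, n = 3 each), and fell by 0.53 ± 0.09 on the log2 scale (SE, edgeR adjusted p = 1.39e-05). With GC and length offsets the log2 fold change of MALAT1 was -0.09 (adjusted p = 0.506). FTX, a long RNA of the X inactivation centre, had 12, 15 and 19 counts in C1s-CM, against 23, 36 and 40 counts in control CM. The groups did not overlap, and the log2 fold change of FTX was -1.09 ± 0.28 (SE, edgeR adjusted p = 8.76e-04). With offsets it was -0.47 and missed the threshold (adjusted p = 0.248). At a mean of 1.73 CPM it was the lowest of all tested genes, and 37.1% of its annotated exon bases overlap those of JPX on the other strand, which has no row.

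UBBP4, a pseudogene of the ubiquitin gene UBB, was higher. It had 54, 78 and 40 counts in C1s-CM, against 32, 26 and 31 counts in control CM. Its groups did not overlap, and C1s-CM replicate 3 lay closest to the controls. The log2 fold change of UBBP4 was 0.96 ± 0.23 (SE, edgeR adjusted p = 4.27e-04), and 0.87 with offsets, also past the threshold. UBBP4 is 91.7% identical to UBB over 72.6% of its length, and UBB, at 1467 ± 54.7 CPM in C1s-CM and 1269 ± 15.8 CPM in control CM (SD, n = 3 each), rose by 0.21 on the log2 scale.

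The small nucleolar RNA hosts had the highest median CPM (86.6) and the smallest median absolute log2 fold change (0.17) of the naming classes with more than 1 member. SNHG29, which carries SNORD49A, SNORD49B and SNORD65, had 11282, 12154 and 11363 counts in C1s-CM, against 10759, 11378 and 11706 counts in control CM. In CPM the groups did not overlap (826 to 852 CPM in C1s-CM, 802 to 816 CPM in control CM), but the log2 fold change was 0.05 ± 0.03 (SE) and missed the threshold (edgeR adjusted p = 0.0536). It passed without C1s-CM replicate 1 (adjusted p = 0.0270). At 823 mean CPM SNHG29 ranked 176 of the 5117 genes. Its direction depended on the scaling: with total counts it was -0.07 and with offsets -0.06, both past the threshold, and with offsets from the longest transcript 0.01.

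SNHG17, host of SNORA71A to SNORA71D, had 2370, 2403 and 2271 counts in C1s-CM, against 1926, 2206 and 2187 counts in control CM. It averaged 169.6 ± 3.52 CPM in C1s-CM and 150.7 ± 5.13 CPM in control CM (SD, n = 3 each), without overlap, and rose by 0.17 ± 0.04 on the log2 scale (SE, edgeR adjusted p = 1.02e-04). SNHG11, host of SNORA71E and SNORA60, had 326, 345 and 327 counts in C1s-CM, against 242, 268 and 247 counts in control CM. Its C1s-CM libraries had 23.9 to 24.2 CPM, all above the control CM libraries at 16.9 to 19.0 CPM.

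The log2 fold change of SNHG11 was 0.41 ± 0.08 (SE, edgeR adjusted p = 7.12e-05). SNHG15, host of SNORA9, had 231, 264 and 258 counts in C1s-CM, against 192, 205 and 190 counts in control CM. It rose by 0.37 ± 0.09 (SE, adjusted p = 7.85e-04), with no overlap between groups. SNHG7, host of SNORA17A and SNORA17B, had 1310, 1301 and 1175 counts in C1s-CM, against 984, 1200 and 1263 counts in control CM. Its groups overlapped in CPM, and it rose by 0.15 ± 0.05 (SE, adjusted p = 0.00910), but only 0.09 without control CM replicate 1, which missed the threshold (adjusted p = 0.0910). With offsets 0 of the 5 hosts were called higher, SNHG7 (-0.14) and SNHG29 were called lower (but not with the replicate block added, edgeR adjusted p = 0.0515 and 0.0993), SNHG17 was -0.06, and SNHG11 and SNHG15 were 0.11 and 0.10. SNHG15 passed the threshold with offsets from the longest transcript (0.31, adjusted p = 0.0121 by edgeR). With total counts as the only scaling SNHG17 (0.04) and SNHG7 (0.02) missed the threshold. The hosts' small nucleolar RNAs were not measured here.

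SNHG17 and SNHG11 are neighbours on chromosome 20, run in opposite directions and carry RNAs of the same SNORA71 family. Their promoters (RefSeq, GRCh38.p14, 250 bases before to 50 after the start) are shown because both hosts rose without offsets and their start regions share letters. SNHG11 is at chr20:38446404-38446703 on the plus strand and SNHG17 at chr20:38435279-38435578 on the minus strand, and capitals mark every word of at least 10 letters that both contain.
SNHG11: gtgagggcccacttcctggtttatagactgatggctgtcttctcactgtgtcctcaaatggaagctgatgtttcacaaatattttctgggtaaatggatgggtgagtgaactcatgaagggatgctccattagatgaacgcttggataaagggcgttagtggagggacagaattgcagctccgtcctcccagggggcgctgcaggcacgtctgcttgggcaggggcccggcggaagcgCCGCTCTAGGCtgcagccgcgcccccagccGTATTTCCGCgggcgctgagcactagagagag
SNHG17: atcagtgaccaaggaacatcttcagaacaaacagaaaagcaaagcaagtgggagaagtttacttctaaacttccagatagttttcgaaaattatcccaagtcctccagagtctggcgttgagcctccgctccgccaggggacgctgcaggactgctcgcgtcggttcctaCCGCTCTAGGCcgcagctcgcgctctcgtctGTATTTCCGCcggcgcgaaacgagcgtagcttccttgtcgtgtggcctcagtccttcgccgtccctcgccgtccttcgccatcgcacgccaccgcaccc

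Of the 49 members 22 had a promoter entry. The shared words were CCGCTCTAGGC, at -12 in SNHG11 and -80 in SNHG17 relative to the start, and GTATTTCCGC, at 18 in SNHG11 and -49 in SNHG17. Searched on both strands, the first occurred in 15 of 35116 promoters (0.0427%) and the second in 19 (0.0541%), and 2 promoters held both. The words were taken from the promoters of SNHG11 and SNHG17, so that these 2 hold both was fixed in advance. A shared word describes these letters and is not evidence of a binding site. Over members with an entry, the median promoter GC content was 62.8% for the 10 that were higher and 62.7% for the 12 that were lower.

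Of 6 members that span mature microRNAs, MIR100HG, FTX and LINC00472 carry widely studied ones, and all 3 were lower without offsets. Of the other 3, GABPB1-AS1 and AL390728.4 were also lower and AC138932.1 was higher, so that 5 of the 6 were lower and 1 higher. Of all tested genes 48.5% were lower, and of those under 50% GC content 93.9%. MIR100HG, FTX, LINC00472 and GABPB1-AS1 lie under 50% GC content. With offsets LINC00472 and AL390728.4 were called lower, the latter not with the longest transcript, and AC138932.1 was called higher. MIR100HG, FTX and GABPB1-AS1 then missed the threshold. MIR100HG carries miR-125b, let-7a and miR-100, FTX carries miR-421, miR-374b and miR-545, and LINC00472 spans the miR-30a and miR-30c loci. Their main mature products (RefSeq, GRCh38.p14) are shown because their loci lie within the spans of these hosts, with the seed (bases 2 to 8) in capitals. The loci of those shown share 0 bases with annotated exons of their hosts, so the spliced host transcripts do not contain them. Mature microRNAs were not measured here.
miR-125b-5p: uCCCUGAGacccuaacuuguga
let-7a-5p: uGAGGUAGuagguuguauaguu
miR-100-5p: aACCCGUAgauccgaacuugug
miR-30a-5p: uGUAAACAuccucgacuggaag
miR-30c-5p: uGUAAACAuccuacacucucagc
miR-421: aUCAACAGacauuaauugggcgc
miR-374b-5p: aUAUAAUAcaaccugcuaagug
miR-545-3p: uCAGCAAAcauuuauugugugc

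Of these, miR-30a-5p and miR-30c-5p share the seed GUAAACA and the others each have their own. MIR100HG had 203, 278 and 289 counts in C1s-CM, against 345, 328 and 400 counts in control CM. It averaged 18.5 ± 3.29 CPM in C1s-CM and 25.6 ± 2.15 CPM in control CM (SD, n = 3 each), without overlap, and fell by 0.47 ± 0.10 on the log2 scale (SE, edgeR adjusted p = 1.83e-04). With offsets it was 0.03 (adjusted p = 0.872).

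LINC00472 had 70, 70 and 60 counts in C1s-CM, against 106, 104 and 114 counts in control CM. Every C1s-CM library was below every control CM library. It fell by 0.68 ± 0.14 on the log2 scale (SE, edgeR adjusted p = 9.30e-05) and was also lower with offsets (-0.55, adjusted p = 0.00440). Of proteins that process microRNAs, 6 of 14 had a row, of which 2 were higher and 4 lower, beside 50.9% and 48.5% of all tested genes. The median GC content of these 6 genes was 43.7%, and of all tested genes from 40 to under 45% GC content 96.3% were lower. DICER1, the endonuclease that cuts microRNA precursors, fell by 0.63 ± 0.08 and the Argonaute protein gene AGO3 by 0.69 ± 0.10 on the log2 scale (SE), and with offsets these were -0.09 and -0.16 and missed the threshold.

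The other LINC genes were higher. LINC00337 had 38, 60 and 51 counts in C1s-CM, against 19, 36 and 20 counts in control CM. Its groups did not overlap, although C1s-CM replicate 1 (2.78 CPM) was near control CM replicate 2 (2.55 CPM). Its log2 fold change was 1.00 ± 0.24 (SE, edgeR adjusted p = 5.36e-04), 1.35 without control CM replicate 2, and 0.80 with offsets, past the threshold. RefSeq gives its later symbol as ICMT-DT. LINC01547 had 108, 117 and 114 counts in C1s-CM, against 81, 75 and 75 counts in control CM. It rose by 0.56 ± 0.14 without overlap, and with offsets was 0.30 and missed the threshold (adjusted p = 0.102). LINC02245 had 216, 225 and 234 counts in C1s-CM, against 187, 168 and 166 counts in control CM. It rose by 0.39 ± 0.10 without overlap and was the only tested member with a GC content under 50% (49.04%) that was higher; RNY1, at 44.2%, was higher in the fit without the filter. With offsets it was 0.44 and past the threshold.

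Of the 3 antisense genes with the highest CPM, which is not scaled by length, FGD5-AS1 and OIP5-AS1 were lower and ARRDC1-AS1 was higher. FGD5-AS1 had 1188, 1168 and 1066 counts in C1s-CM, against 1361, 1488 and 1565 counts in control CM. OIP5-AS1, known in vertebrates as cyrano, a target of miR-7, had 676, 715 and 643 counts in C1s-CM, against 972, 1051 and 1126 counts in control CM. In both genes every C1s-CM library was below every control CM library in CPM. FGD5-AS1 fell by 0.35 ± 0.04 (SE, edgeR adjusted p = 1.58e-07) and OIP5-AS1 by 0.62 ± 0.05 (SE, edgeR adjusted p = 2.36e-10) on the log2 scale, the smallest SEs of the antisense genes that fell. ARRDC1-AS1 had 890, 876 and 916 counts in C1s-CM, against 775, 795 and 861 counts in control CM, and rose by 0.16 ± 0.05 (adjusted p = 0.00689) without overlap. With offsets these 3 were 0.01, -0.04 and -0.13, and all missed the threshold. With total counts ARRDC1-AS1 was 0.0299 and missed it (edgeR adjusted p = 0.615).

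The largest antisense falls were in genes with fewer counts. GABPB1-AS1 had 68, 71 and 38 counts in C1s-CM, against 111, 98 and 95 counts in control CM. NNT-AS1 had 56, 73 and 77 counts in C1s-CM, against 112, 119 and 120 counts in control CM. Neither overlapped between groups, and C1s-CM replicate 3 was the lowest for GABPB1-AS1. GABPB1-AS1 fell by 0.77 ± 0.18 and NNT-AS1 by 0.75 ± 0.14 on the log2 scale (SE), and with offsets both missed the threshold (-0.33 and -0.21). PSMA3-AS1 (-0.61), MAGI2-AS3 (-0.60), HIF1A-AS3 (-0.57), OTUD6B-AS1 (-0.55) and THAP9-AS1 (-0.48) also fell on the log2 scale. PXN-AS1 (0.45), PIK3CD-AS2 (0.38) and SNAI3-AS1 (0.30) rose, and with total counts SNAI3-AS1 was 0.17 and missed the threshold (edgeR adjusted p = 0.0676). None of the 13 antisense genes overlapped between groups, against 97.2% of all tested genes without overlap.

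HIF1A-AS3 and MAGI2-AS3 were the antisense genes called with offsets from the representative transcript, and HIF1A-AS3 and THAP9-AS1 (-0.25) with those from the longest. HIF1A-AS3, whose identifier GENCODE 29 names HIF1A-AS2, had 76, 92 and 88 counts in C1s-CM, against 134, 121 and 129 counts in control CM. Its log2 fold change was -0.57 ± 0.13 without offsets and -0.63 ± 0.13 with them (SE, edgeR adjusted p = 5.11e-04 with offsets), and -0.72 with the longest transcript. MAGI2-AS3 had 175, 202 and 158 counts in C1s-CM, against 251, 293 and 276 counts in control CM. It was -0.72 with offsets, but 0.08 with the longest transcript, when it missed the threshold (adjusted p = 0.582). The GC content of MAGI2-AS3 was 52.5% in the representative transcript and 34.0% in the longest of its 26 annotated transcripts.

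The clone-named genes held the widest spread outside BCYRN1. AC093297.2, an intergenic RNA on chromosome 5 (44826076 to 44828592, plus strand), had 16, 17 and 18 counts in C1s-CM, against 32, 50 and 46 counts in control CM. AC097448.1, which had no entry in GENCODE 29, had 30, 30 and 25 counts in C1s-CM, against 56, 67 and 73 counts in control CM. In both genes every C1s-CM library was below every control CM library. AC093297.2 fell by 1.31 ± 0.25 (SE, edgeR adjusted p = 3.78e-05) and AC097448.1 by 1.19 ± 0.19 (SE, edgeR adjusted p = 5.31e-06) on the log2 scale. AC093297.2 was -0.76 with offsets and past the threshold (adjusted p = 0.0257), and AC097448.1 has no GC value.

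AL035071.1 had 31, 29 and 23 counts in C1s-CM, against 50, 57 and 69 counts in control CM. AC005261.1 had 91, 100 and 71 counts in C1s-CM, against 161, 187 and 195 counts in control CM. These intergenic RNAs, on chromosomes 20 and 19, did not overlap between groups and fell by 1.07 ± 0.20 and 1.04 ± 0.12 on the log2 scale (SE). With offsets they were -0.72 and -0.47, both past the threshold. AC011815.1 (-0.85), AC107029.1 (-0.57) and AL390728.4 (-0.59), which RefSeq names ZNF731P, also fell without offsets and with them (-0.71, -0.59 and -0.86), although AL390728.4 missed the threshold with the longest transcript (-0.29). AL662795.2 (-0.94) and AC107021.2 (-0.95) fell without offsets, and with offsets were -0.53 and -0.40 and missed the threshold (adjusted p = 0.112 and 0.222 by edgeR).

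The 2 clone-named genes with the highest CPM, not scaled by length, were higher by small amounts. AL118506.1 had 540, 600 and 575 counts in C1s-CM, against 468, 457 and 574 counts in control CM. AC027307.2 had 525, 544 and 563 counts in C1s-CM, against 460, 467 and 466 counts in control CM. Neither overlapped in CPM, though for AL118506.1 C1s-CM replicate 1 (39.5 CPM) and control CM replicate 3 (39.3 CPM) were nearly level. AL118506.1 rose by 0.21 ± 0.07 and AC027307.2 by 0.24 ± 0.07 on the log2 scale (SE). With offsets they were -0.06 and 0.0025 and missed the threshold, and with total counts both missed it too (0.08 and 0.12). AL118506.1 also missed it without control CM replicate 2 (0.15, edgeR adjusted p = 0.0595).

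Both share exon bases with a coding gene on the other strand, AL118506.1 48.4% of its own with ABHD16B and AC027307.2 42.9% with APC2. The use of strand in counting is not given in the sources used here, so reads of such pairs could not be told apart. Among the clone-named genes with fewer counts AC138932.1 (0.91 ± 0.21, SE), AC092117.1 (0.88 ± 0.26), AL022328.4 (0.81 ± 0.24), AC008438.1 (0.62 ± 0.14), AL162458.1 (0.46 ± 0.14) and AL139246.5 (0.39 ± 0.12) rose on the log2 scale. With offsets AC138932.1 (0.63), AL162458.1 (0.51) and AC008438.1 (0.48) were still past the threshold, and AC092117.1 (0.67, adjusted p = 0.0573), AL022328.4 (0.43) and AL139246.5 (0.0430) were not, by edgeR. AL022328.4 had 59, 35 and 43 counts in C1s-CM, against 18, 30 and 31 counts in control CM, and without C1s-CM replicate 1 it was 0.57 and missed the threshold (adjusted p = 0.0516). AC138932.1 is annotated as the pseudogene PKD1P3 in RefSeq, and 54.9% of its exon bases lie in NPIPA1 on the same strand. It is 98.1% identical to the coding gene PKD1 over 50.4% of its length. PKD1, at 70.9 CPM in C1s-CM and 53.8 CPM in control CM, rose by 0.40 on the log2 scale. Reads of PKD1 placed on AC138932.1 could not be told apart from its own.

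The 3 processed pseudogenes of ribosomal protein genes were higher, each with overlapping groups. AC079250.1 had 226, 420 and 360 counts in C1s-CM, against 238, 221 and 253 counts in control CM. C1s-CM replicate 1 fell among the control CM libraries and the other C1s-CM libraries lay well above them. Its log2 fold change was 0.51 ± 0.13 (SE, edgeR adjusted p = 9.70e-04), 0.72 without C1s-CM replicate 1 and 0.34 without C1s-CM replicate 2, and in DESeq2 its adjusted p was 0.0539. AC073861.1 (RPS18P5), 98.7% identical to RPS18, had 248, 317 and 340 counts in C1s-CM, against 213, 197 and 287 counts in control CM. AL450405.1 (RPL29P4), 97.3% identical to RPL29, had 313, 414 and 416 counts in C1s-CM, against 319, 328 and 322 counts in control CM. C1s-CM replicate 1 was again the lowest C1s-CM library in both.

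AC073861.1 was 0.39 ± 0.11 and AL450405.1 0.25 ± 0.09 higher on the log2 scale (SE), and AL450405.1 missed the threshold without C1s-CM replicate 3 (0.17, adjusted p = 0.0945) or control CM replicate 3 (0.22, adjusted p = 0.0654), and with total counts (0.12, adjusted p = 0.223). The coding genes most similar to AL450405.1 and AC073861.1 rose too, RPL29 by 0.23 and RPS18 by 0.18 on the log2 scale. RPL29 averaged 3268 ± 23.5 CPM in C1s-CM and 2787 ± 39.8 CPM in control CM, and AL450405.1 averaged 27.5 ± 4.04 CPM in C1s-CM and 23.2 ± 1.06 CPM in control CM (SD, n = 3 each). Reads of the coding genes placed on such copies could not be told apart from transcription of the copy. With offsets none of the 3 passed the threshold (0.18, 0.17 and -0.02 for AC079250.1, AC073861.1 and AL450405.1).

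Members moved in the same direction as their neighbours without offsets. Of the antisense genes 7 had the gene named before their suffix in the table, and all 7 pairs had the same sign, 3 higher and 4 lower. HIF1A-AS3 (-0.57) went with HIF1A (-0.61), which encodes the hypoxia-inducible factor subunit, and PSMA3-AS1 (-0.61) with PSMA3 (-0.32), a proteasome subunit gene. OTUD6B-AS1 (-0.55) went with OTUD6B (-0.63), GABPB1-AS1 (-0.77) with GABPB1 (-0.39), ARRDC1-AS1 (0.16) with ARRDC1 (0.40), PXN-AS1 (0.45) with PXN (0.19) and SNAI3-AS1 (0.30) with SNAI3 (0.50). All 7 pairs lay on the same side of 50% GC content, and with offsets 4 of 7 had the same sign.

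Of the 49 members 17 started head to head with a coding gene, that is on opposite strands with start sites within 1000 bases. The neighbour had a row in 10 pairs, and all 10 had the same sign, 6 higher and 4 lower. AC092117.1 (0.88) lay 22 bases from the start of ELOB (0.43), PXN-AS1 56 bases from that of RPLP0 (0.28), and PSMA3-AS1 251 bases from that of ARID4A (-0.84). In 9 of the 10 pairs both genes were on the same side of 50% GC content, and with offsets 4 of 10 had the same sign. Of 9 members that share exon bases with a coding gene in the table, all 9 had its sign without offsets and 1 with them, and 8 lay on the same side of 50% GC content. Neighbours and GC content could not be told apart here, and no test was made on the pairs.

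**Figure D3:**
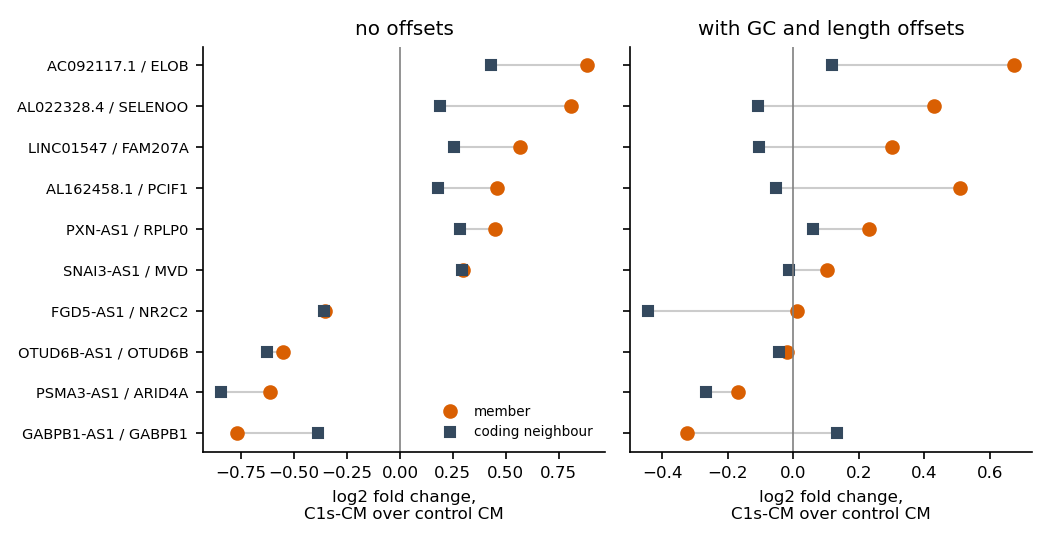
Log2 fold change of C1s-CM over control CM for 10 members and their head-to-head coding neighbours, without offsets (left) and with GC and length offsets (right), on axes of their own. Without offsets every pair lies on one side of 0, and with offsets 4 of 10 do.

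The direction of the members followed the GC content of their transcripts, as it did for all genes of the table. Of 20 tested members with a GC content under 50%, 1 was higher and 19 lower, and 5.88% of all tested genes under 50% were higher. Of 27 members at 50% or above, 24 were higher, 2 were lower (MAGI2-AS3 and AL390728.4) and 1 was not called, and 97.1% of all tested genes there were higher. RNY1 (44.2%), which the filter removed, is not in these counts and was higher in the fit without the filter, against this pattern. The median GC content was 56.4% in the tested members that were higher and 40.4% in those that were lower. Across the 47 tested members with a GC value, which leave out RNY1 and share the same 6 libraries and are not independent, Spearman's rho between GC content and log2 fold change was 0.71, and it was 0.85 across all tested genes. MAGI2-AS3 and AL390728.4 have GC contents of 34.0% and 38.0% in their longest transcripts.

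**Figure D4:**
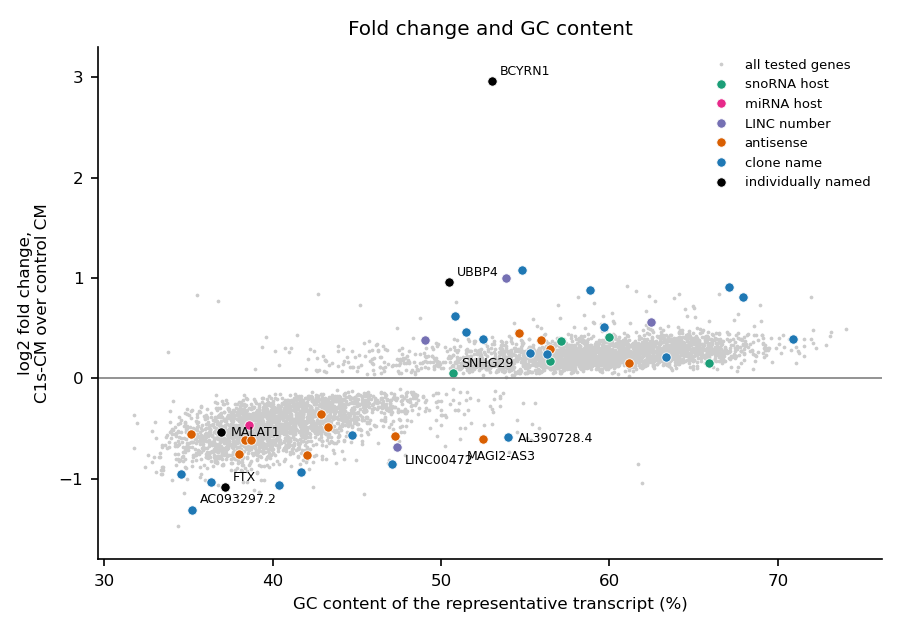
Log2 fold change of C1s-CM over control CM against the GC content of the representative transcript, with all tested genes in grey and members coloured by naming class. Tested members with a GC content under 50% lie below 0 except LINC02245 (RNY1, not plotted, was higher without the filter), and those above it lie above 0 except MAGI2-AS3 and AL390728.4. The axis ends at 3.3, above which lie 5 genes, none of them a member.

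With offsets for GC content and length, 8 of 47 members were higher, 11 lower and 28 not called. Of all tested genes 14.6% were then higher and 11.4% lower, 26% in either direction, against 40.4% of the members. The members had a median of 9.61 CPM and all tested genes 62.2 CPM, and genes with few counts entered the table only with larger differences. No share among genes of like CPM was made, so the contrast is no result about noncoding genes. The median log2 fold change of the members was -0.02 and that of all tested genes was -0.0025. The 8 higher members were BCYRN1, UBBP4, FP236383.5, LINC00337, AC138932.1, AL162458.1, AC008438.1 and LINC02245. Of the 11 lower ones, 9 were also lower without offsets, namely AL390728.4, AC093297.2, MAGI2-AS3, AL035071.1, AC011815.1, HIF1A-AS3, AC107029.1, LINC00472 and AC005261.1, and the others were SNHG7 and SNHG29. Of these 17 members called in the same direction, 15 were also called with the longest transcript, MAGI2-AS3 and AL390728.4 being the exceptions. The GC content of 15 of the 26 members with several annotated transcripts ranged over more than 10 percentage points.

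The members were concentrated among the genes of the table with the lowest CPM. They were 13.7% of the 102 tested genes under 5 mean CPM (14 genes), 2.2% of those from 5 to under 20 CPM (19 genes) and 0.361% of those of 20 CPM and over (15 genes). Their median absolute log2 fold change was 0.98 under 5 CPM, 0.57 from 5 to under 20 CPM and 0.30 at 20 CPM and over, beside 0.84, 0.54 and 0.28 for all tested genes in the same ranges. Entry into the table took a larger difference for a gene with few counts, since it required passing the authors' threshold. Of 28 genes that differed at least 2-fold, 7 were members. BCYRN1 and FP236383.5 were 2 of the 7 genes at least 2-fold higher (0.137% of all tested genes), and AC093297.2, AC097448.1, FTX, AL035071.1 and AC005261.1 were 5 of the 21 at least 2-fold lower (0.41%).

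**Figure D5:**
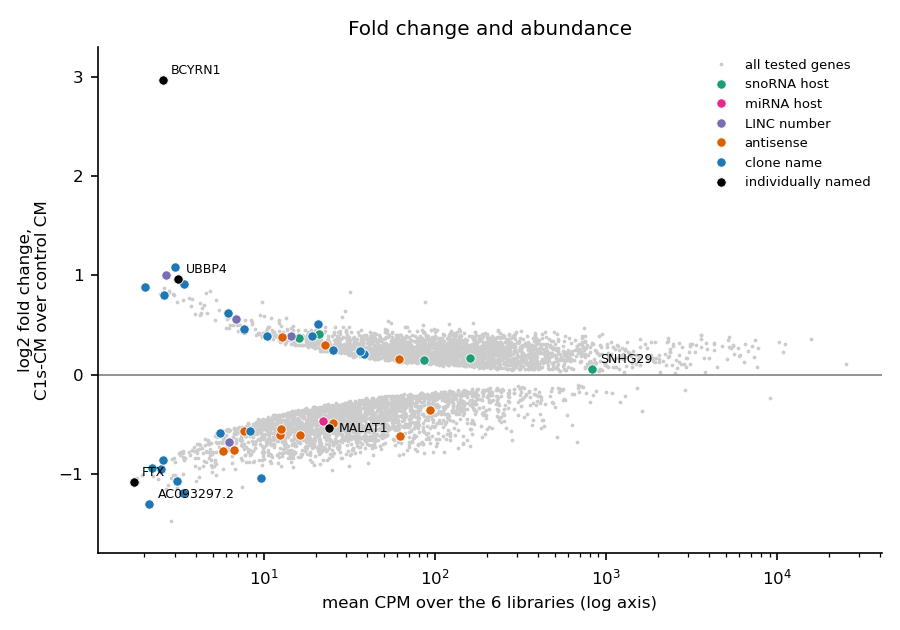
Log2 fold change of C1s-CM over control CM against mean CPM on a log axis, with all tested genes in grey and members coloured by naming class. Both edges of the empty band around 0 widen towards low CPM. Most members lie below 20 CPM, 15 of the 48 tested lie at 20 CPM or over, and SNHG29 at 823 CPM is the highest. The axis ends at 3.3, above which lie 5 genes, none of them a member.

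In the under 5 CPM range the members divided evenly, 7 higher and 7 lower, while 28 of all 102 tested genes were higher and 74 lower. The median GC content there was 50.4% in the members and 40.6% in all tested genes. From 5 to under 20 CPM 9 members were higher and 10 lower, beside 144 and 718 of all tested genes, with median GC contents of 50.8% and 39.98%. At 20 CPM and over 9 were higher and 5 lower, beside 2433 and 1689. Levels of different members are comparable per length only. On that scale SNHG29 had 685 CPM per kb of its representative transcript, SNHG17 had 182 and MALAT1 had 15.7. With the longest transcript these were 495, 74.9 and 2.74 CPM per kb.

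Proteins that bind or degrade such RNAs were taken as context. Their counts by direction stand beside 50.9% higher and 48.5% lower among all tested genes, and were not tested as sets. The median GC content was 43.2% in the nonsense-mediated decay list and 41.6% in the exosome list. It was 42.5% in the paraspeckle list and 41.0% in the nuclear speckle list. Of all tested genes from 40 to under 45% GC content 96.3% were lower, so the counts of lower genes are no result about these lists. Of 21 nonsense-mediated decay genes 9 had a row, 4 higher and 5 lower, with the kinase gene SMG1 (-0.39 ± 0.05, SE) lower and SMG5 (0.22 ± 0.03) higher. Of 27 nuclear exosome and adaptor genes 12 had a row, 4 higher and 8 lower, and the helicase MTREX (-0.54 ± 0.06) and the nuclease DIS3 (-0.65 ± 0.09) fell. Of 18 paraspeckle protein genes 10 had a row, 4 higher and 6 lower, among them ZNF24 (-0.64 ± 0.07) and NUDT21 (-0.36 ± 0.05). Of 17 nuclear speckle genes 9 had a row, 3 higher and 6 lower, with BCLAF1 (-0.73 ± 0.06) and the splicing factor SF3B1 (-0.35 ± 0.03) lower. All these values are on the log2 scale, and with offsets SMG1, SMG5, MTREX, DIS3, ZNF24 and BCLAF1 missed the threshold, while NUDT21 (0.19) and SF3B1 (0.13) passed it in the other direction.

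Of 18 small nucleolar ribonucleoprotein genes 9 had a row, 6 higher and 3 lower, with the assembly factors RUVBL2 (0.33 ± 0.03) and PIH1D1 (0.23 ± 0.03) higher on the log2 scale. RUVBL2 was 0.08 with offsets and past the threshold, and PIH1D1 (-0.03) was not. The median GC content of these 9 genes was 51.6%, and of all tested genes from 50 to under 55% GC content 86.8% were higher. Of 11 Alu and Y RNA binding protein genes 8 had a row, and all 8 were lower. RO60, which encodes the protein that binds Y RNAs, fell by 0.86 ± 0.09 and SSB, which encodes the La protein that binds RNA polymerase III transcripts, by 0.51 ± 0.05 on the log2 scale (SE). With offsets RO60 (-0.34) was past the threshold and SSB (-0.04) was not, and the list had 3 genes higher and 3 lower. The median GC content of this list was 40.4%. Of all tested genes from 40 to under 45% GC content 96.3% were lower, so the count of 8 is near that share and is no result about these genes.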

How the data were processed

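RNA-seq of 6 HMC3 libraries (3 C1s-CM, 3 control CM) was analysed. RNA with poly(A) tails was captured on oligo(dT) beads, fragmented and primed at random, per the labels' protocols. Per the submitters' processing notes, FastQC 0.11.9, Trim Galore 0.6.7, HISAT2 2.2.1, DESeq2 1.40.2 and GRCh38 were used. Not given in the sources used here are the read counter, its annotation and whether it used strand. The authors deposited raw counts per gene, whole and not normalized, beside their own log2 fold change, p-value and adjusted p-value for each gene. The largest adjusted p-value in that table was 0.05, so its 5117 genes are a called subset.

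Counts were tested with edgeR 4.0.16 in R 4.3.3 (filterByExpr, TMM, quasi-likelihood, group only, two-sided, Benjamini-Hochberg over 5116 genes, threshold 0.05). TMM assumes that most genes do not change, an assumption that a table made only of called genes may break. SE is the log2 fold change over the square root of F. CPM uses TMM-scaled table totals, so it is relative to the table and not to the library. Offsets came from a loess fit of log2 CPM (prior count 2) on GC content and log2 length (span 0.3, degree 2) of a GENCODE 29 representative transcript. They were fitted on called genes and would also remove a difference that follows GC content. GENCODE 29 held 48 of 49 members. Similar coding transcripts were found with BLAST 2.17.0 (at least 80% identity over 50% of the member). Sequences came from GENCODE 29 and RefSeq GRCh38.p14. Alternatives were DESeq2 1.42.0, total-count scaling, other filters, the replicate block, offsets and each library left out. The steps were tested on simulated data.

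Named are all individually named genes, snoRNA hosts and microRNA hosts, in every other class the 3 members with the highest mean CPM and the 3 with the largest change, the gene before an antisense suffix, and up to 2 genes of each context list. Other members are named to account for all 49, and were chosen after their values were seen. The members and lists were chosen with earlier results of these data known. Some items are not reported here.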

Additional observations from a re-analysis of the deposited data

How the results depend on the processing

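With GC and length offsets 8 members were higher and 11 lower, with offsets from the longest transcript (an alternative chosen after seeing the data) 9 and 9, and with replicate block and offsets 8 and 9, SNHG7 and SNHG29 missing the threshold. The median log2 fold change of the members was -0.0237 with offsets, 0.0038 with the longest transcript, -0.0269 with block and offsets, and 0.0272 with total counts. The class medians, in the same order of settings, were -0.130, -0.0448, -0.130 and -0.68 for antisense genes, -0.0106, -0.0271, -0.0121 and 0.12 for clone-named genes, and -0.0550, 0.0133, -0.0548 and 0.0448 for snoRNA hosts. The LINC median was 0.32 with the longest transcript and 0.35 with total counts. The median of the individually named genes was -0.53 with a mean count of at least 50, which leaves MALAT1 alone. Leaving out each library gave medians from -0.55 to -0.50 for antisense genes and from 0.0251 to 0.32 for individually named genes, and 24 to 26 members higher. These members changed sign with offsets (in brackets the longest transcript, then block and offsets): AL118506.1 -0.0558 (-0.0636, -0.0526), AL450405.1 -0.0237 (-0.0758, -0.0269), ARRDC1-AS1 -0.130 (-0.11, -0.130), FGD5-AS1 0.0118 (0.0038, 0.0107), MIR100HG 0.0296 (0.0031, 0.0300) and SNHG7 -0.14 (-0.15, -0.14). SNHG17 was -0.0550 with offsets and -0.0548 with block and offsets, SNHG29 -0.0631 in both and -0.0728 with total counts, and MAGI2-AS3 0.0811 with the longest transcript only. The causes were not tested.

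Direction and side of the threshold were kept by 17 of 47 members with offsets, 40 of 48 with total counts, 48 of 48 in the replicate block fit and 48 of 49 with DESeq2. The replicate block gave 25 members higher and 22 lower. Same-numbered libraries did not deviate together (correlations of deviations -0.133, -0.0888 and -0.0015), so the numbers were not taken as pairs. Replicates differed by more than sampling noise (chi-square per degree of freedom 2.02 to 4.96). Low counts limit the members under 5 CPM, and the depth of the whole libraries is unknown.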
